A study of Mus musculus with 48 samples.

Results

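The enzymes described here are the cytochrome P450s, the conjugating transferases and the steroid and retinoid dehydrogenases of the mouse kidney. They were taken by symbol, as every named gene beginning with Cyp plus a digit, Ugt, Sult, Aldh, Akr, Hsd or Rdh, which gave 84 of 7859 named genes. Of these, 56 passed the filter on low signals, as did 5745 genes in all. Kidney RNA was measured in 48 female BALB/c mice, 6 in each of 8 groups. Every animal received 7 daily injections, of 0.9% saline or of vancomycin at 50, 200 or 400 mg/kg, and was killed on day 8. The drug, a glycopeptide antibiotic that can injure the renal tubule, was given into a vein (iv) or into the peritoneal cavity (ip), and saline mice were kept for either route. BALB/c is an inbred albino strain, and the animals' age is not given in the sources used here. A piece of kidney holds every renal cell type, so fewer cells of a type and less RNA per cell cannot be told apart in any value below.

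Cytochrome P450s are haem monooxygenases that oxidise sterols, vitamin D, fatty acids and foreign compounds. In the kidney they include the hydroxylases that activate and inactivate vitamin D and those that turn arachidonic acid into epoxides and hydroxy acids acting on vessels and salt transport. Hydroxysteroid, retinol and aldehyde dehydrogenases and aldo-keto reductases move hydrogen on and off steroids, retinoids and reactive aldehydes, while the Ugt and Sult transferases attach sugars or sulfate. Many of them are made mainly in the proximal tubule, which takes up vancomycin.

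A limit touches every named value. Values and probe set identifiers are out of step in the deposited table, and genes were named in 3 stretches of it, of 2500, 6750 and 1750 rows, by a fixed shift of the identifiers within each stretch. Over 233 same-gene pairs that lie in different stretches and are well above background, the residual profiles correlated at a mean of 0.349. With a stretch moved by 1 row this was 0.038 or 0.103, over 182 and 185 pairs. Each name below therefore rests on a position in the table. A further 79 symbols of the platform that fit the rule lie outside the stretches and were not analysed here.

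The starts of 5 enzymes whose RNA changed at 400 mg/kg by both routes, and for which a window was at hand, are shown because these members moved far. They run from 250 bases before to 50 bases after the transcript start in RefSeq (GRCm38.p6). The windows are Hsd3b2 (chr3:98724494-98724793, minus strand), Cyp51 (chr5:4104648-4104947, minus strand), Akr1d1 (chr6:37529923-37530222, plus strand), Aldh1a2 (chr9:71215539-71215838, plus strand) and Cyp1b1 (chr17:79715012-79715311, minus strand). Each is written 5′ to 3′ in the direction of its gene, and capitals mark every match, on either strand, to 4 motifs. These were AGGTCA, bound by nuclear receptors, GTTAAT, bound by the tubule factor HNF1, GCGTG, the core bound by the aryl hydrocarbon receptor, and the TATA box TATAAA.
Hsd3b2: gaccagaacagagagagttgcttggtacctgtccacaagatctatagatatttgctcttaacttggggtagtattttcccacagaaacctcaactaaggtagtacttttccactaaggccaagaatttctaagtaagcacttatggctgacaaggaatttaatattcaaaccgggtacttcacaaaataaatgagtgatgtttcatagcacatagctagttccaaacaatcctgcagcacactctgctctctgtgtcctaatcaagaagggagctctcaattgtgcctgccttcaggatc
Cyp51: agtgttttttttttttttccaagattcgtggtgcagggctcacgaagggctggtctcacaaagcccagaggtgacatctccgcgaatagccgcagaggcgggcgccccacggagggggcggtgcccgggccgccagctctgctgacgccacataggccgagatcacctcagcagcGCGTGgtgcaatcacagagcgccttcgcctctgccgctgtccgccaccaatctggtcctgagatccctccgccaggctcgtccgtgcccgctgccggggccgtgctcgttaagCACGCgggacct
Akr1d1: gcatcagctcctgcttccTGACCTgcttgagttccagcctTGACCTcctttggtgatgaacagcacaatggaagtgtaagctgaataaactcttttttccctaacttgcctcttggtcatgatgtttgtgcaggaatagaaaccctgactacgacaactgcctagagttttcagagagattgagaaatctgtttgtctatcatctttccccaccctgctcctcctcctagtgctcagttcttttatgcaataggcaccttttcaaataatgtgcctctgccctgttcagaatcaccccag
Aldh1a2: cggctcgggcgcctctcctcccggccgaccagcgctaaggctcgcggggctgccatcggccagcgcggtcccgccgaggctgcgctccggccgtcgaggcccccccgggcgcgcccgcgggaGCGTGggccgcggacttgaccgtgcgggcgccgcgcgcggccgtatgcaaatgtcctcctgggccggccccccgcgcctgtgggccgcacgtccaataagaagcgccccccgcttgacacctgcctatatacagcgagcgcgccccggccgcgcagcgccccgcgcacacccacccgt
Cyp1b1: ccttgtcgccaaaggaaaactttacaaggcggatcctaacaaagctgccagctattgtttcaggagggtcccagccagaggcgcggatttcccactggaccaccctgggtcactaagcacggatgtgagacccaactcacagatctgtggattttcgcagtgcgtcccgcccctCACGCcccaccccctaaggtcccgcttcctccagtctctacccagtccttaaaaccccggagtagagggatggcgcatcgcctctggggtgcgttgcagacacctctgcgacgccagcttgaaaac
The Akr1d1 window holds 2 matches to AGGTCA, both on the opposite strand. The Cyp51 window has 2 matches to GCGTG, while those of Aldh1a2 and Cyp1b1 have 1 each, and that of Hsd3b2 has no match to any of the 4. Among all 32851 RefSeq windows 16.3% held AGGTCA, 7.1% GTTAAT, 32.4% GCGTG and 13.6% TATAAA. The 68 windows found for 61 of the 84 genes held them in 23.5%, 7.35%, 35.3% and 20.6%. A match is a description of the letters and not a binding site.

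At 400 mg/kg most of the measured enzymes changed by both routes, and falls outnumbered rises. By iv injection 25 of 56 fell and 13 rose in limma at a Benjamini-Hochberg adjusted p under 0.05, or 44.6% and 23.2%. Over all genes tested 49.7% passed, 19% downward and 30.7% upward. By ip injection 28 of 56 fell and 13 rose, against 25.1% down and 36.3% up among all genes, where 61.3% passed in either direction. The median log2 change of the 56 was -0.32 by iv and -0.38 by ip, beside 0.09 and 0.11 over all genes. Every treated mouse lay below every saline mouse for 11 enzymes by iv and 24 by ip, and above for 7 and 9. The same happened for 6.88% and 17.2% of all genes downward and 15.1% and 24.1% upward.

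**Figure D1:**
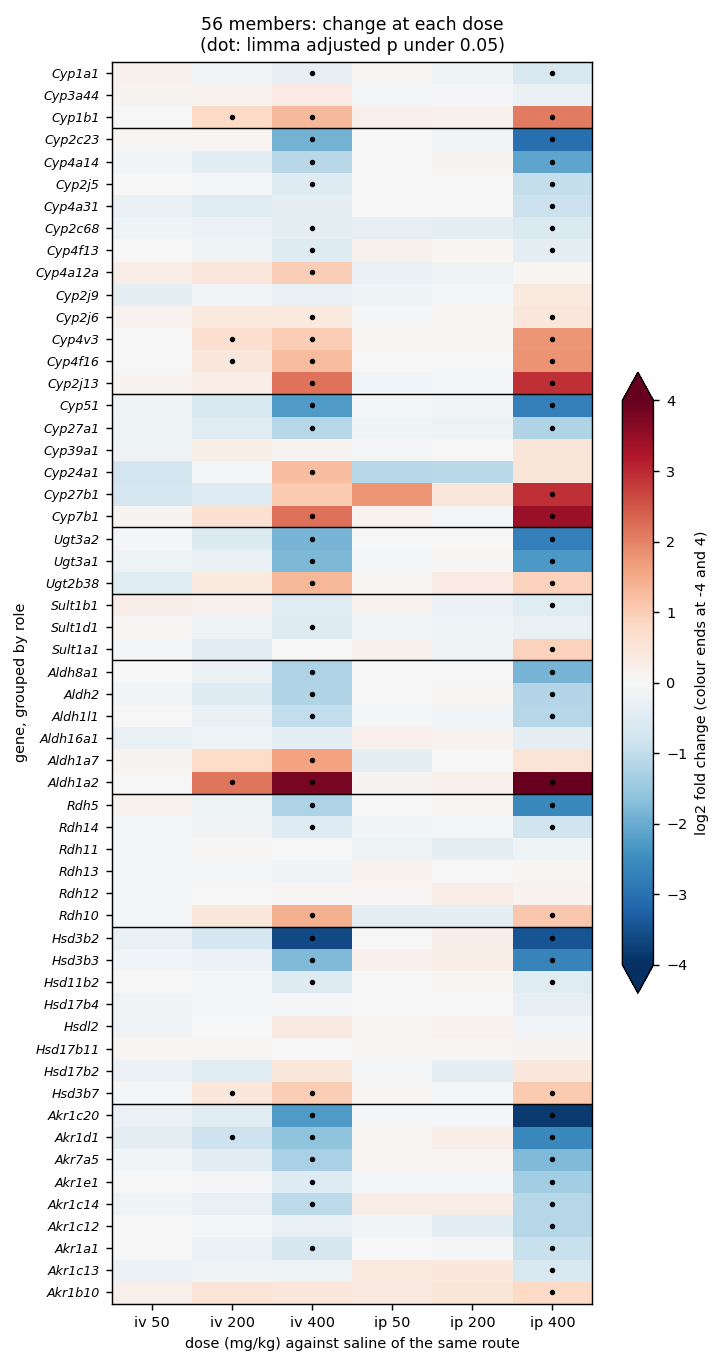
Log2 fold change of the 56 enzymes (rows, grouped by role) at each dose against saline of the same route (columns); blue is lower, red higher, and a dot marks a limma adjusted p under 0.05. The dots fill the columns at 400 mg/kg, with 38 by iv and 41 by ip, are 6 at iv 200 mg/kg and are missing from the other columns.

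Both routes called 10 enzymes upward and 24 downward, 11 were called by neither, 4 by iv alone and 7 by ip alone. That is 17.9% up and 42.9% down by both routes, beside 26.6% and 16.3% of all genes tested, and 19.6% called by neither, beside 32%. No enzyme was called in opposite directions. Being called by 1 route is no test of a difference between routes, which is given further on.

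Other gene groups moved with these enzymes, and their part in the results was not tested. Of 10 proximal tubule markers 9 fell by iv and 10 by ip at 400 mg/kg. Their summed intensity ran from 36500 to 62600 in iv saline and from 8920 to 35000 at iv 400 mg/kg, and from 56900 to 65400 against 5040 to 19800 by ip. All 7 measured markers of the loop and distal tubule also fell by both routes. Macrophage markers rose in 7 of 7 by each route, from sums of 553 to 687 up to 4920 to 13500 by iv and from 560 to 1110 up to 10600 to 26200 by ip. Fibroblast markers rose in 5 of 5 by each route, with sums of 232 to 490 against 1380 to 4180 by iv and 268 to 483 against 3170 to 6760 by ip. Tubular injury markers likewise rose in 5 of 5, from 2050 to 3470 up to 21900 to 39400 by iv and from 2800 to 4600 up to 27700 to 38000 by ip. Of 14 adrenal markers 5 were named (Star, Cyp21a1, Nr5a1, Mc2r and Chga), and all 5 were under the background filter, with sums between 23.9 and 31.3 over the groups. Liver markers could hardly be read, since 4 of 12 were named. Of the 3 that passed the filter, Fga rose and Alb and Apoa2 fell at 400 mg/kg by each route, and Cyp7a1, made in liver cells, averaged 2.29 on the log2 scale.

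Retinoid enzymes went both ways. Aldh1a2, which makes retinoic acid from retinaldehyde, rose more than any other of the 56 enzymes by either route. Log2 intensities, the scale of all levels given here, ran from 4.76 to 5.21 in iv saline (median 4.96), 4.8 to 5.02 at iv 50 (4.97), 4.96 to 8.23 at iv 200 (7.73) and 7.8 to 9.57 at iv 400 mg/kg (8.69). By ip they were 5.33 to 5.97 in saline (5.88), 5.69 to 6.28 at 50 (5.9), 5.86 to 6.45 at 200 (5.92) and 9.56 to 10.96 at 400 mg/kg (10.68). The groups at 400 mg/kg did not overlap saline by either route, and at iv 200 mg/kg the mice were spread from the saline range upward. The log2 fold change at 400 mg/kg was 3.79 ± 0.33 by iv (SE, limma adjusted p = 4.1e-13) and 4.69 ± 0.33 by ip (2.6e-16), or 13.9-fold and 25.8-fold.

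Rdh10, which oxidises retinol to retinaldehyde and so supplies Aldh1a2, also rose. Its level went from 7.44 to 8.39 (median 8.19) in iv saline to 8.91 to 10.14 (9.55) at iv 400 mg/kg, and from 8.78 to 9.14 (9.01) to 9.44 to 10.72 (9.96) by ip. Groups were apart by both routes, with log2 fold changes of 1.43 ± 0.19 (SE, limma adjusted p = 1.9e-08) and 1.07 ± 0.19 (3.9e-06). Aldh1a7, a close relative of the retinal dehydrogenases, rose by 1.62 ± 0.37 by iv (adjusted p = 0.00034 in limma) and measured 0.56 ± 0.37 by ip (adjusted p = 0.19). Aldh1a3, the other retinoic acid maker named here, stayed between 2.43 and 3.23 on every array, under the table's median of 3.47.

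In the other direction, Rdh5, a retinol dehydrogenase best known from the visual cycle, fell from 4.85 to 5.45 (median 4.9) in iv saline to 3.31 to 4.69 (3.55) at iv 400 mg/kg. By ip it fell from 5.46 to 5.73 (5.61) to 2.66 to 3.65 (2.78), a level near background. The log2 fold changes were -1.23 ± 0.19 (SE, limma adjusted p = 5.1e-07) and -2.59 ± 0.19 (1e-15). Aldh8a1, which oxidises an intermediate of tryptophan breakdown and also retinal, stood at a median of 11.95 in iv and 12.23 in ip saline and at 10.69 and 10.37 at 400 mg/kg. Its fold changes were -1.23 ± 0.19 and -1.87 ± 0.19 (limma adjusted p = 8.7e-07 and 2.4e-11), without overlap of the groups by either route. Rdh14, a retinal reductase, fell by 0.52 and 0.80 (limma adjusted p = 0.00048 and 2.4e-07). Its relatives Rdh11, Rdh12 and Rdh13 did not pass, with changes between -0.16 and 0.13 across both routes. Stra6, the cell-surface receptor that takes up retinol from its carrier, was not one of the enzymes and rose by 1.63 by ip (limma adjusted p = 0.00022), with 0.57 by iv (0.21).

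**Figure D2:**
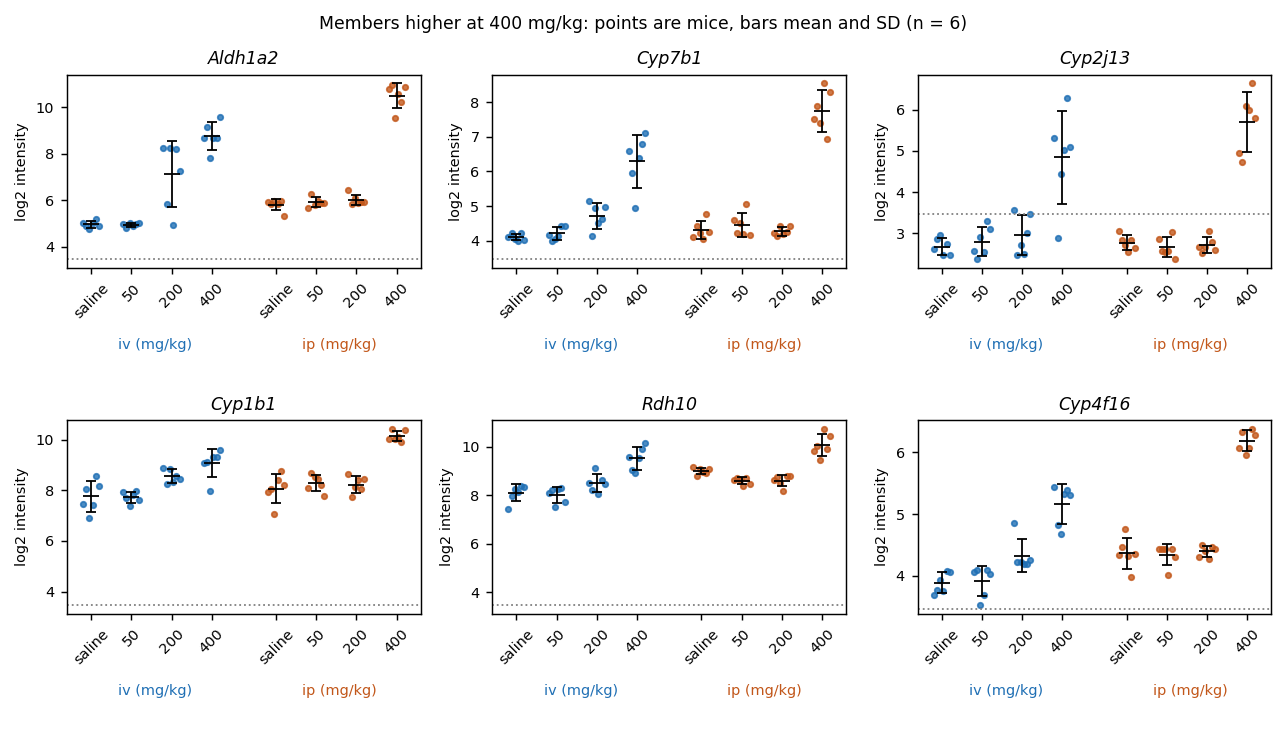
Log2 intensity of 6 enzymes that rose at 400 mg/kg, by group (6 mice each, points); black bars are mean and SD, iv groups are blue, ip groups orange, and the dotted line is the table's median of 3.47. Aldh1a2 at iv 200 mg/kg runs from 4.96 to 8.23, while at 400 mg/kg all mice are at 7.8 or above by either route.

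Among the 8 tested genes named Hsd the largest falls were in Hsd3b2 and Hsd3b3, adjacent genes of the family that converts hydroxysteroids to ketosteroids. Hsd3b2 ran from 7.98 to 8.37 (median 8.17) in iv saline, 7.42 to 8.18 (7.96) at iv 50, 6.09 to 8.21 (7.78) at iv 200 and 2.73 to 6.95 (4.65) at iv 400 mg/kg. By ip it ran from 8.36 to 9.22 (8.69), 8.45 to 8.88 (8.69) and 8.64 to 9.33 (8.94) in the 3 lower groups and from 3.5 to 7.58 (4.76) at 400 mg/kg. Every mouse at 400 mg/kg was below every saline mouse, but the treated mice were spread over about 4 log2 units. The log2 fold change was -3.62 ± 0.49 by iv (SE, limma adjusted p = 4.3e-08) and -3.44 ± 0.49 by ip (6.4e-08), or 12.3-fold and 10.8-fold lower.

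Hsd3b3 fell by 1.77 ± 0.35 by iv and 2.68 ± 0.35 by ip (limma adjusted p = 3.9e-05 and 6.5e-09), and at iv 400 mg/kg its 6 mice, from 5.66 to 9.07, overlapped the saline range of 8.93 to 9.33. Hsd3b7, of the same family by name but acting in bile acid synthesis, rose instead, by 0.99 ± 0.12 and 1.05 ± 0.12 (limma adjusted p = 6.2e-09 and 5.9e-10), with no overlap by either route. Its levels were 6.32 to 6.86 (median 6.59) against 7.13 to 7.84 (7.64) by iv and 7.18 to 7.52 (7.38) against 8.15 to 8.74 (8.44) by ip.

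Hsd11b2, which inactivates glucocorticoid in the collecting duct and so guards the mineralocorticoid receptor, fell by 0.51 ± 0.17 and 0.48 ± 0.17 (limma adjusted p = 0.012 and 0.016). The iv call ended without iv 400 mg/kg mouse 44 (adjusted p = 0.072) and when only the compared groups were fitted (0.079). Of 6 collecting duct markers, Hsd11b2 among them, 5 fell by iv and 4 by ip, with Aqp2 not called. Their summed intensity was 2920 to 6400 in iv saline and 1730 to 4420 at iv 400 mg/kg, and 4580 to 6020 against 3010 to 5590 by ip, and their part in the Hsd11b2 values was not tested. Hsd17b2, which oxidises estradiol, measured 0.44 and 0.43 (adjusted p = 0.2 and 0.19 in limma), and Hsd17b4 of peroxisomal fatty acid oxidation -0.08 and -0.33 (0.7 and 0.081), with the ip value between 0.004 and 0.043 under both other scalings, array weights, a fit of the compared groups alone and without ip mouse 105. Hsd17b11, on lipid droplets, was at -0.03 and 0.12 (0.88 and 0.41). Of the 8 dehydrogenases named Hsd that passed the filter, 3 fell and 1 rose by each route, so 4 were called, a share near the 49.7% and 61.3% of all genes.

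Of 9 aldo-keto reductases that passed the filter, 6 fell and none rose by iv, and 8 fell and 1 rose by ip, where 19% and 25.1% of all genes fell. Their median changes were -0.67 and -1.13. Akr1c20, a hydroxysteroid dehydrogenase, went from 6.79 to 7.41 (median 7.15) in iv saline to 3.82 to 6.18 (4.73) at iv 400 mg/kg. By ip it went from 7.5 to 7.89 (7.79) to 3.31 to 5.46 (3.77), at or close to background in most mice. The groups did not overlap, and the log2 fold changes were -2.28 ± 0.28 (SE, limma adjusted p = 2.9e-09) and -3.82 ± 0.28 (7.1e-16). A second, dim Akr1c20 probe set, at a mean of 2.75, measured 0.05 by iv and -0.15 by ip.

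Akr1d1, the reductase that saturates the steroid ring during bile acid synthesis and steroid breakdown, went from 3.9 to 4.68 (median 4.32) to 1.97 to 3.27 (2.7) by iv and from 4.62 to 5.33 (5.17) to 1.96 to 2.92 (2.54) by ip. Its treated level lies under the table's median, so the falls of 1.60 ± 0.25 and 2.57 ± 0.25 (limma adjusted p = 5e-07 and 2.8e-12) are approximate. Akr7a5, which reduces aflatoxin and other dialdehydes, fell by 1.31 ± 0.18 and 1.78 ± 0.18 (3.9e-08 and 7.9e-12 in limma). Akr1a1, the aldehyde reductase of ascorbate synthesis and the brightest of these signals at a median of 14.33 in iv saline, fell by 0.67 ± 0.08 and 0.90 ± 0.08 (limma adjusted p = 5.2e-09 and 7.4e-13). Akr1c14 fell by 1.05 and 1.13, with an adjusted p of 0.053 by iv when only the compared groups were fitted. Akr1b10 was the single aldo-keto reductase to rise, by 0.80 ± 0.18 by ip (limma adjusted p = 0.00018), beside 0.42 ± 0.18 by iv (0.054). A second, dim Akr1b10 probe set, at a mean of 2.8, measured 0.1 by ip and 0.03 by iv.

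Of the other aldehyde dehydrogenases, Aldh2, which clears acetaldehyde, fell by 1.19 ± 0.27 and 1.17 ± 0.27 (limma adjusted p = 0.00029 and 0.00026). Aldh1l1, a folate enzyme, fell by 0.97 ± 0.17 and 1.15 ± 0.17 (5.3e-06 and 1.2e-07 in limma), and its groups did not overlap. Aldh16a1 measured -0.40 and -0.38 and did not pass (adjusted p = 0.11 in both, limma).

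**Figure D3:**
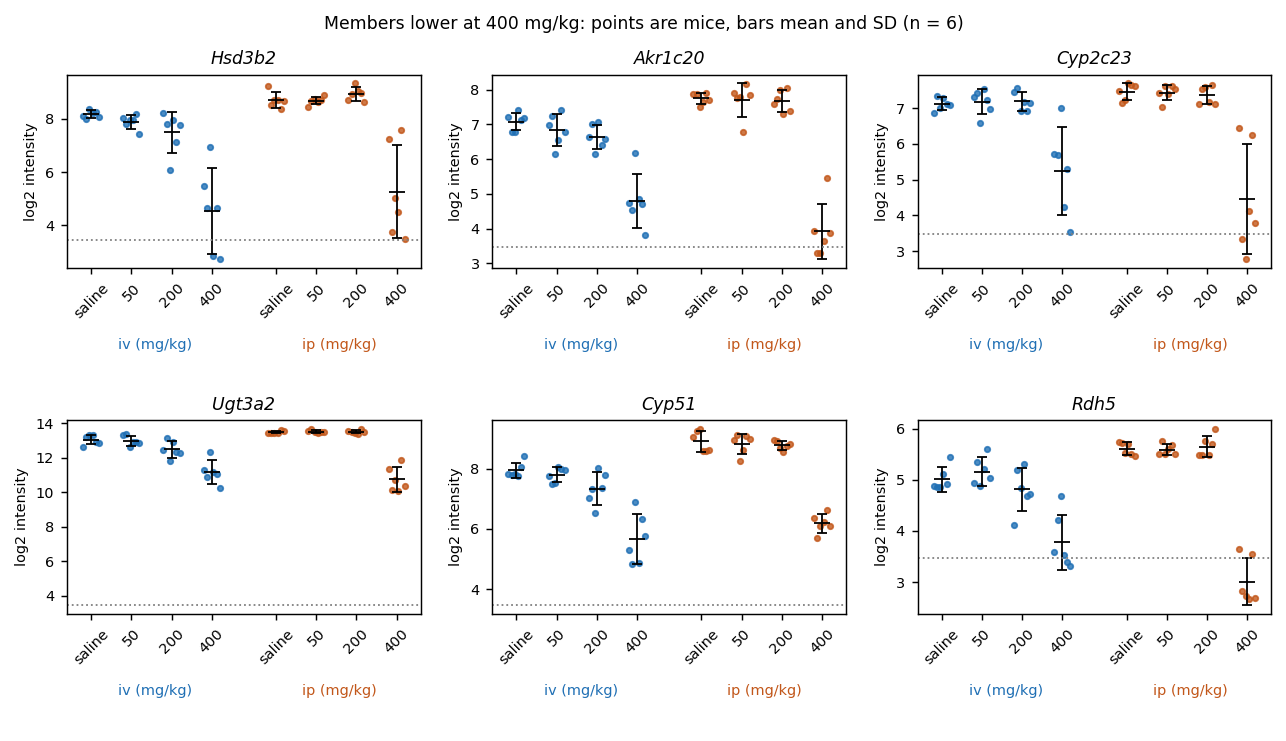
Log2 intensity of 6 enzymes that fell at 400 mg/kg, by group (6 mice each, points); black bars are mean and SD, iv groups are blue, ip groups orange, and the dotted line is the table's median of 3.47. For Hsd3b2 the mice run from 7.98 to 8.37 in iv saline and from 6.09 to 8.21 at iv 200 mg/kg, and at 400 mg/kg from 2.73 to 6.95 by iv and from 3.5 to 7.58 by ip.

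In sterol metabolism, Cyp51, the P450 that demethylates lanosterol on the way to cholesterol, fell. Its level went from 7.75 to 8.43 (median 7.83) in iv saline to 4.83 to 6.88 (5.52) at iv 400 mg/kg and from 8.57 to 9.31 (8.83) to 5.7 to 6.64 (6.15) by ip. All treated mice were below all saline mice, by -2.28 ± 0.24 (SE, limma adjusted p = 7e-11) and -2.72 ± 0.24 (2e-13). A second, dim probe set of the gene, at a mean of 3.01, measured -0.12 and -1.12. Cyp27a1, the mitochondrial sterol side-chain hydroxylase, fell by 1.14 ± 0.16 and 1.19 ± 0.16 (limma adjusted p = 1.4e-07 and 2.6e-08).

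Cyp7b1, which hydroxylates oxysterols, rose from 4 to 4.23 (median 4.08) in iv saline to 4.94 to 7.12 (6.49), with 4.14 to 5.14 (4.78) at iv 200 mg/kg. By ip it rose from 4.05 to 4.78 (4.24) to 6.93 to 8.54 (7.69). The log2 fold changes were 2.19 ± 0.23 (SE, limma adjusted p = 8.7e-11) and 3.44 ± 0.23 (8.6e-17), without overlap, and a second probe set gave 2.33 and 3.85. Cyp39a1, another oxysterol hydroxylase, measured 0.12 and 0.47 (adjusted p = 0.67 and 0.059 in limma). Its ip value passed at 0.0039 when only ip 400 mg/kg and ip saline were fitted, at 0.014 with array weights and at 0.038 and 0.049 without ip mouse 104 or 107, and its highest value under an alternative was 0.53.

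The vitamin D hydroxylases differed between the saline groups as well as with dose. Cyp27b1, which makes the active hormone calcitriol, ran from 4.92 to 7.14 (median 6.27) in iv saline, 3.76 to 6.41 (5.96) at iv 50, 4.38 to 7.52 (5.28) at iv 200 and 6.68 to 7.82 (7.41) at iv 400 mg/kg. In the ip groups it ran from 3.93 to 5.89 (4.36), 5.03 to 7.84 (6.41), 4.56 to 6.26 (4.77) and 7.25 to 7.97 (7.7). Only the ip 400 mg/kg mice were all above their saline group, and the levels did not follow the order of the doses. The change at 400 mg/kg was 2.91 ± 0.48 by ip (SE, limma adjusted p = 1e-06) and 1.06 ± 0.48 by iv (0.06). The iv value passed at 0.025 when only the compared groups were fitted and without saline mouse 4 or 5 or treated mouse 44 (0.04, 0.036 and 0.047), with 0.05 without mouse 45. Against 200 mg/kg, Cyp27b1 was called upward at 400 mg/kg by iv (limma adjusted p = 0.0084) and by ip (1.6e-05). That iv call was kept in each of the 12 fits that left out a mouse.

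Cyp24a1, which inactivates calcitriol, had levels of 7.56 to 8.97 (median 8.2) in iv saline and 8.12 to 10.18 (10.06) at iv 400 mg/kg. In ip saline it was already at 8.61 to 10.92 (9.6), and ip 400 mg/kg gave 8.74 to 11.68 (10.3). Groups overlapped by both routes, with changes of 1.22 ± 0.47 by iv (limma adjusted p = 0.029) and 0.49 ± 0.47 by ip (0.38). The iv call was lost without saline mouse 4 or 5 or treated mouse 44, 46, 47 or 48, where the adjusted p ran from 0.052 to 0.071. Against iv 200 mg/kg, Cyp24a1 was also called upward at iv 400 mg/kg (limma adjusted p = 0.034). That call was lost in 8 of 12 fits that left out a mouse. A second probe set gave 1.32 and -0.04. Vdr, the vitamin D receptor, fell by 0.55 and 0.89 (limma adjusted p = 0.013 and 7.2e-05).

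**Figure D4:**
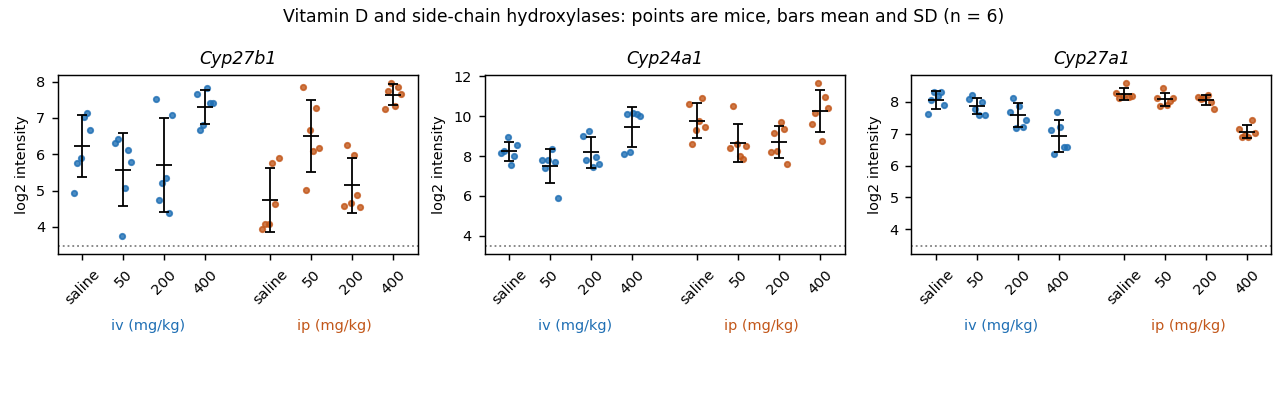
Log2 intensity of Cyp27b1, Cyp24a1 and Cyp27a1 by group (6 mice each, points), with mean and SD as black bars, iv groups blue, ip groups orange and the table's median of 3.47 dotted. In saline Cyp27b1 is lower by ip than by iv (means 4.73 and 6.23) and Cyp24a1 is higher (9.78 and 8.24).

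The P450s of arachidonic and other fatty acids split, and close relatives moved in opposite directions. Of 12 that passed the filter, rises and falls numbered 5 each after iv injection, and 4 and 6 after ip injection. The matching shares of all genes at 400 mg/kg were 30.7% upward and 19% downward for iv, with 36.3% and 25.1% for ip. Whether the split of these 12 departs from those shares was not tested. Cyp2c23, a main arachidonate epoxygenase of rodent kidney, went from 6.86 to 7.34 (median 7.1) in iv saline to 3.52 to 7.01 (5.49), and from 7.13 to 7.69 (7.55) in ip saline to 2.77 to 6.45 (3.95). A single iv mouse at 7.01 remained in the saline range, and by ip there was no overlap. The log2 fold changes were -1.88 ± 0.40 (SE, limma adjusted p = 0.00012) and -3.01 ± 0.40 (1.2e-08). Cyp2j5, another epoxygenase and among the brightest signals, with medians of 12.87 and 13.26 in saline, fell by 0.51 ± 0.14 and 0.94 ± 0.14 (0.0023 and 1.4e-07 in limma). Its iv adjusted p was 0.056 when only the compared groups were fitted.

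Cyp2j13, of the same subfamily, rose from background. Its level was 2.47 to 2.95 (median 2.67) in iv saline and 2.88 to 6.28 (5.05) at iv 400 mg/kg, and 2.55 to 3.06 (2.78) against 4.73 to 6.64 (5.89) by ip. By iv 1 treated mouse stayed in the saline range, and by ip all were above it. The changes of 2.16 ± 0.30 and 2.93 ± 0.30 (limma adjusted p = 5.9e-08 and 1.4e-11) start from a level under the table's median and are approximate. Cyp2j6 rose by 0.38 and 0.46 (limma adjusted p = 0.038 and 0.0092).

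Among the fatty acid hydroxylases, Cyp4a14 fell by 1.11 ± 0.41 by iv and 2.10 ± 0.41 by ip (limma adjusted p = 0.021 and 2.1e-05). At ip 400 mg/kg its mice were spread from 7.81 to 13, the highest being above all saline mice (12.2 to 12.43), and the iv call was lost without saline mouse 2 or treated mouse 43 or 48 (0.055, 0.053 and 0.065). Cyp4a12a, which makes the vasoconstrictor hydroxy acid of arachidonate, rose by 0.99 ± 0.28 by iv (0.0034 in limma) and measured 0.09 ± 0.28 by ip (0.8). Cyp4f16 rose from 3.69 to 4.08 (median 3.86) to 4.68 to 5.43 (5.31) by iv and from 3.98 to 4.76 (4.35) to 5.96 to 6.37 (6.17) by ip. Its groups were apart by both routes, by 1.27 ± 0.13 and 1.81 ± 0.13 (limma adjusted p = 6.6e-11 and 1e-15). Cyp4f13 fell by 0.53 and 0.37 (limma adjusted p = 0.00095 and 0.015). Cyp4v3, a fatty acid hydroxylase, rose by 0.98 ± 0.19 and 1.77 ± 0.19 (4e-05 and 9.6e-11 in limma).

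Of the conjugating enzymes, both Ugt3a transferases, which attach sugars other than glucuronic acid, fell. Ugt3a2 ran from 12.66 to 13.32 (median 13.05) in iv saline and from 10.26 to 12.35 (11.14) at iv 400 mg/kg, and from 13.43 to 13.62 (13.47) against 10.1 to 11.87 (10.56) by ip. Its groups did not overlap, with log2 fold changes of -1.87 ± 0.23 (SE, limma adjusted p = 4.2e-09) and -2.74 ± 0.23 (5.7e-14). Ugt3a1 fell by 1.79 ± 0.26 and 2.30 ± 0.26 (limma adjusted p = 1.1e-07 and 1.5e-10). Ugt2b38, a glucuronosyltransferase, rose by 1.33 ± 0.32 and 0.93 ± 0.32 (0.0005 and 0.011 in limma), and its ip call was lost without treated mouse 107 (adjusted p = 0.051, change 0.71).

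Of 3 measured sulfotransferases 1 fell by iv, and by ip 1 fell and 1 rose. Over all genes 19% fell and 30.7% rose by iv, and 25.1% fell and 36.3% rose by ip. Counts out of 3 cannot be read as particular to sulfotransferases beside such shares. Sult1d1 measured -0.51 ± 0.17 by iv and -0.30 ± 0.17 by ip (adjusted p = 0.01 and 0.12 in limma), and its ip value passed with array weights (-0.43, 0.012) and without ip mouse 105 (-0.48, 0.0079). Sult1b1 measured -0.47 and -0.49 (0.051 and 0.037). Sult1a1, which sulfates phenols, measured -0.01 ± 0.29 by iv (0.98) and 0.92 ± 0.29 by ip (0.0055). Papss2, which makes the sulfate donor, is not one of the enzymes counted and fell by 1.65 and 1.87 (limma adjusted p = 6.9e-10 and 8.7e-12), and Ugp2, which makes UDP-glucose, fell by 0.75 and 0.86 (1.3e-07 and 2.8e-09).

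Of the P450s known mainly for foreign compounds, only the 11 within the named stretches could be judged. These were mostly silent, as 3 of 11 passed the filter. Cyp1b1, a target of the aryl hydrocarbon receptor that is also made in stromal cells, was the exception. It went from 6.89 to 8.56 (median 7.77) in iv saline to 7.98 to 9.58 (9.22) at iv 400 mg/kg and from 7.06 to 8.75 (8.13) to 9.91 to 10.42 (10.07) by ip. The iv groups overlapped through 1 treated mouse at 7.98 and the ip groups did not, with log2 fold changes of 1.31 ± 0.23 (SE, limma adjusted p = 7.2e-06) and 2.08 ± 0.23 (1.7e-10). A second probe set gave 1.18 and 2.14. Cyp1a1, the classical target of the same receptor, lay between 2.13 and 4.14 on every array and measured -0.33 ± 0.14 and -0.65 ± 0.14 (limma adjusted p = 0.043 and 8.1e-05), at a level not told from background. Its iv call was lost without saline mouse 1, 2, 5 or 6 or treated mouse 43, 46 or 48, where the adjusted p reached 0.16. Without saline mouse 3 or treated mouse 47 it was 0.05. Ahr, the receptor itself, rose by 0.71 and 1.00 (0.00088 and 4e-06 in limma).

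The 28 enzymes that did not pass the filter had means between 1.43 and 3.07, and 25 of them were never above the table's median on any array. They include Cyp7a1, Cyp3a11, Cyp2b10, Cyp2c29 and Ugt2b1, made mostly in liver, and Cyp17a1 and Cyp21a1 of adrenal and gonadal steroid synthesis. No change in them could be read.

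From a list of other genes of these pathways (electron donors, receptors, cofactor makers and further oxidising enzymes) 25 of 38 named genes passed the filter. After iv injection 3 of the 25 rose while 10 fell, and after ip injection 5 rose while 13 fell, with median changes of -0.23 and -0.32. Among all genes 49.7% passed by iv, 30.7% upward and 19% downward. By ip 61.3% of all genes passed, 36.3% upward and 25.1% downward. The median changes of all genes were 0.09 and 0.11. Cyb5a and Cyb5b, cytochromes that pass electrons to P450s, fell by 0.85 and 1.04 by iv and by 1.10 and 1.18 by ip (limma adjusted p = 5.7e-11, 2.1e-08, 1.2e-14 and 4.7e-10). Cyb5r3, from the same list, instead rose by 0.85 and 0.94 (limma adjusted p = 2.9e-09 and 9e-11). Tspo, also listed, rose by 0.98 and 0.72 (4.4e-08 and 8.6e-06 in limma). Hnf4a, a nuclear receptor of proximal tubule and liver cells, fell by 1.03 and 1.52 (1.5e-06 and 1.1e-10 in limma). Ces1d, a carboxylesterase, fell by 2.52 and 3.31 (7.4e-06 and 1.8e-08 in limma).

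Position on the chromosome showed both shared and opposed changes. In RefSeq order 23 of the 56 enzymes sit in 8 clusters, counted as at most 10 protein-coding genes apart. On chromosome 13 the 5 reductases Akr1c14, Akr1c13, Akr1c12, Akr1c20 and Akr1e1 all fell by ip, from -0.65 to -3.82, while by iv Akr1c13 (-0.21) and Akr1c12 (-0.30) were not called and the other 3 fell. The neighbours Ugt3a1 and Ugt3a2 on chromosome 15 and Hsd3b2 and Hsd3b3 on chromosome 3 fell by both routes. On chromosome 4, in contrast, Cyp2j13, which entered the tests through mice at 400 mg/kg, and Cyp2j6 rose and Cyp2j5 fell by both routes. Cyp2j9, between the last pair, passed in neither (-0.30 and 0.39). In the Cyp4a cluster of the same chromosome Cyp4a12a rose and Cyp4a14 fell by iv, and Cyp4a14 and Cyp4a31 fell by ip. Cyp4f16 rose and Cyp4f13 fell by both routes on chromosome 17. Genes this alike can share probes, which was not tested, and probe sets whose names end in s or x were designed where transcripts are similar.

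The dose steps were uneven. At iv 50 mg/kg none of the 56 enzymes passed in limma, and 0 had an unadjusted p under 0.05, where 0.54% of all genes passed. At ip 50 and ip 200 mg/kg again none passed in limma, with 5 and 7 enzymes at an unadjusted p under 0.05, and 0.087% of all genes passed at each dose. The shares of all genes here are at the adjusted p. Those at an unadjusted p were not counted, so the unadjusted counts have no background to be set beside. With arrays weighted by quality 1 enzyme passed at each, namely Cyp27b1 upward at ip 50 and Cyp2c68 downward at ip 200 mg/kg.

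At iv 200 mg/kg 5 enzymes rose and 1 fell, or 10.7% of 56 beside 7.36% of all genes, 6.07% upward and 1.29% downward. Aldh1a2 rose by 2.15 ± 0.33 (SE, limma adjusted p = 1.2e-05). Cyp1b1 rose by 0.80, Cyp4v3 by 0.65, Cyp4f16 by 0.44 and Hsd3b7 by 0.42, and Akr1d1 fell by 0.83 (limma adjusted p between 0.025 and 0.031). These calls are not stable. None was kept when only iv 200 mg/kg and iv saline were fitted, with Aldh1a2 at an adjusted p of 0.054 and Akr1d1 at 0.057. The count was 2 without saline mouse 1 or treated mouse 25 or 27, 3 without saline mouse 3 or 4, 11 without treated mouse 26, and 16 with array weights. Aldh1a2 was called in each of the 12 fits that left out a mouse, with adjusted p from 1.6e-09 to 0.00013.

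The mice at iv 200 mg/kg were unlike one another. Aldh1a2 was at 5.85 in mouse 26 and 4.96 in mouse 28 and at 7.26 or more in the other 4. Summed tubular injury markers were 7180 and 3130 in mice 26 and 28 and between 20800 and 31200 in the other 4, against 2050 to 3470 in iv saline. The part of injury in the Aldh1a2 values was not tested.

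Between 200 and 400 mg/kg 10 enzymes rose and 20 fell by iv, where 31.2% of all genes passed (17.8% up, 13.4% down), and 13 rose and 27 fell by ip, where 60.6% passed (35.2% up, 25.4% down). The step in Aldh1a2 was 1.64 by iv and 4.48 by ip, that in Hsd3b2 -2.94 and -3.67, and that in Cyp7b1 1.57 and 3.48 (limma adjusted p = 0.00011, 1.1e-15, 8.6e-06, 1.4e-08, 9.9e-07 and 6.8e-17). Both dose steps use the same 400 mg/kg mice as the comparisons with saline.

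Mice at 400 mg/kg differed in how far they moved. By iv, mouse 45 was the least changed in 20 of 25 enzymes that fell and 9 of 13 that rose. Its summed proximal tubule markers were 35000, against 8920 to 24700 in the other 5, and its injury markers 21900, against 32800 to 39400. By ip, mouse 107 was the least changed in 15 and mouse 105 in 10 of 28 falls, and their proximal tubule sums of 19600 and 19800 were the highest of the group, where the others had 5040 to 15800. The 13 ip rises had no such mouse, since each of the 6 was least changed in 1 to 4 of them, and the injury sum was lowest in mouse 107 (27700) but 34500 in mouse 105. Leaving out any mouse kept the number of called enzymes between 34 and 40 by iv and between 38 and 43 by ip.

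Between routes the effect of 400 mg/kg differed for 4 enzymes in limma (ip effect minus iv effect), 7.14% of 56 beside 4.23% of all genes, 2.89% upward and 1.34% downward. Akr1c20 fell further by ip, by a difference of -1.54 ± 0.39 (SE, adjusted p = 0.014). Rdh5 differed by -1.36 ± 0.27 (0.0011) and Akr1e1 by -0.90 ± 0.24 (0.027), both again lower by ip, and Cyp7b1 rose further by ip, by 1.25 ± 0.33 (0.018). The Rdh5 difference is approximate, since its mean of 3.01 at ip 400 mg/kg lies under the table's median. Rdh5 alone passed when only the 4 groups concerned were fitted, with Akr1c20 at 0.078, Cyp7b1 at 0.11 and Akr1e1 at 0.14. Akr1e1 also fell short without iv mouse 44 or 45 or ip mouse 104, 106 or 108 (0.056 to 0.075), and Cyp7b1 under quantile normalization (0.06). The count was 8 without iv mouse 48 or ip mouse 107 and 12 with array weights. For 20 of 24 shared falls and 8 of 10 shared rises the ip change was the larger, but most of these differences were not called. The same count was not made over all genes, of which 61.3% passed by ip and 49.7% by iv. It therefore cannot be read as particular to these enzymes.

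**Figure D5:**
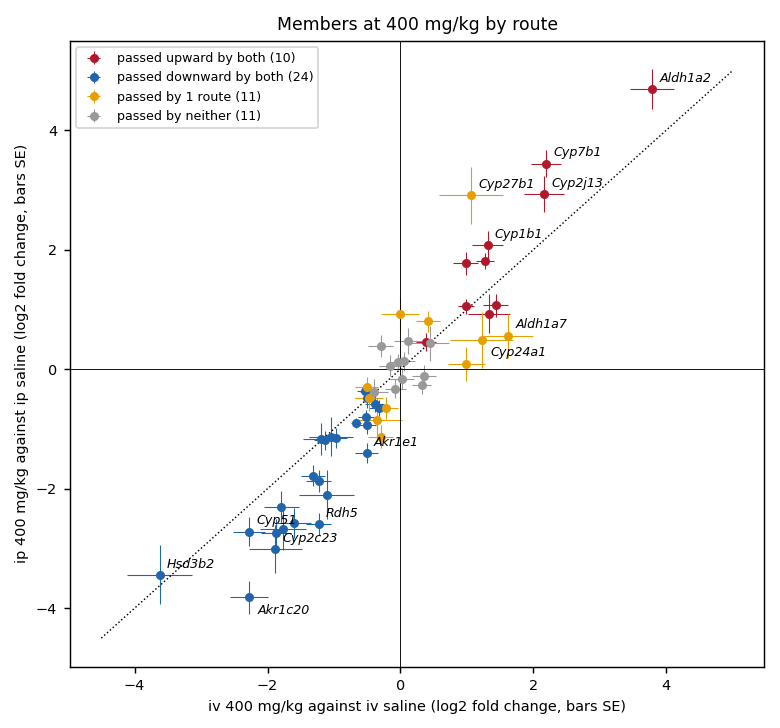
Log2 fold change at 400 mg/kg by iv (horizontal) and by ip (vertical) for the 56 enzymes, with bars of 1 SE and a dotted line of equal change. No point called by both routes lies in an opposed quadrant, and Akr1c20, Rdh5 and Akr1e1 lie under the line while Cyp7b1 lies above it.

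The saline groups themselves differed by route. In ip saline 23 enzymes were higher and 1 lower than in iv saline, where 57.7% of all genes passed, 55.1% upward and 2.56% downward. The median difference was 0.36 over the 56 and 0.41 over all genes, so most of it was shared by the whole array. The 90th percentile of log2 intensity was 8.28 to 8.75 on iv arrays and 9.07 to 9.23 on ip arrays. With arrays centred on their median 9 were higher and 1 lower, and after quantile normalization 1 was higher and 3 lower, so the direction for most enzymes rests on the scaling. The shares of all genes under these scalings are not given here, so the rescaled counts cannot be read as particular to the enzymes.

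Cyp27b1 went against the shift, at -1.50 ± 0.48 (SE, limma adjusted p = 0.0068), and stayed called under all 7 alternatives that gave it a value (-1.93 to -1.50, adjusted p up to 0.0094). Cyp24a1 was higher by 1.54 ± 0.47 (0.0053 in limma), with 1.03 and an adjusted p of 0.12 under quantile normalization. Akr1c12, Cyp51, Rdh10 and Aldh1a2 were higher by 0.97, 0.96, 0.90 and 0.85 (limma adjusted p = 4.3e-05, 0.00076, 8.7e-05 and 0.025), and none of the 4 passed after quantile normalization (0.12, 0.19, 0.11 and 0.47). Route and the way the arrays of each route were made cannot be told apart here.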

How the data were processed

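Kidney RNA of 48 mice was measured on single-colour Affymetrix arrays, 1 mouse per array. The authors deposited intensity values on a linear scale for 45101 probe sets, and GCRMA is named per the submitters' processing notes, its version not given in the sources used here. All values were positive and were converted to log2 with no offset. No number of reads exists for arrays, so the number of mice limits the precision.

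Rows were named by position in 3 stretches of the table (10198 probe sets, 7859 genes), and the row with the highest mean stood for each gene. The filter kept 5745 genes, those exceeding 3.47 (the median log2 of the table) on at least 6 arrays. All 8 groups were fitted together with limma 3.58.1 in R 4.3.3 (moderated tests with a mean-variance trend, residual degrees of freedom 40), two-sided, with Benjamini-Hochberg adjustment over all tested genes and a threshold of 0.05. The fit was tested on simulated data. The labels do not say whether mice shared a cage or an array batch, and p-values measure the spread between these mice.

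Named enzymes are the 10 largest called rises and falls at 400 mg/kg with all treated mice on one side of the saline mean, up to 5 in each direction for other comparisons, every route difference, and a list of well-known members. Other enzymes, and the pathway genes named singly (such as Stra6, Papss2, Ahr and Ces1d), were chosen after their values were seen. The enzymes, roles and marker lists were chosen with earlier results of these data known. Comparisons of doses by 1 route share a saline group. Alternatives were another filter, scaling, array weights, fits of the compared groups alone, averaged probe sets, trimmed stretches and leaving out each mouse. The iv 50 mg/kg mouse labelled 0078 was kept under that number.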

Additional observations from a re-analysis of the deposited data

Results flagged for a closer look

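In 184 groups of 6 mice, from 23 enzymes, 8 held a mouse set apart from the rest by Dixon's test, where chance sets apart about 1 in 20. Akr1c20 was at 6.77 in ip 50 mg/kg mouse 70, the lowest of its group, and at 5.46 in ip 400 mg/kg mouse 107, the highest. Cyp4f16 was also lowest in ip 50 mg/kg mouse 70, at 4.01, and highest at iv 200 mg/kg in mouse 25, at 4.86. Among saline mice Aldh1a2 was lowest in ip mouse 66 (5.33), Hsd3b3 in ip mouse 63 (8.75) and Aldh8a1 in iv mouse 1 (11.39). The array of iv mouse 1 has a 90th percentile of 8.29, beside 8.68 to 8.75 on the other iv saline arrays. Cyp1b1 was lowest at iv 400 mg/kg in mouse 45, at 7.98.

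The effect of 400 mg/kg differed between ip and iv by the limma interaction for 4 enzymes, at -1.54 for Akr1c20, -1.36 for Rdh5, 1.25 for Cyp7b1 and -0.90 for Akr1e1.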

How the results depend on the processing

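The counts of called enzymes at 400 mg/kg against saline, and of 400 against 200 mg/kg, stayed within 1.5 times under every alternative run. With only the compared groups fitted the count for iv 200 mg/kg went from 6 to 0 and that for the route difference from 4 to 1. With array weights these were 16 and 12, and ip 50 and ip 200 mg/kg had 1 each. The count for ip against iv saline went from 24 to 10 with arrays centred on their median and to 4 after quantile normalization. The causes were not tested. Leaving out each mouse gave 2 to 11 called enzymes for iv 200 mg/kg, 34 to 40 for iv 400 mg/kg, 38 to 43 for ip 400 mg/kg, 23 to 33 and 37 to 43 for 400 against 200 mg/kg by iv and ip, 20 to 23 for ip against iv saline, 3 to 8 for the route difference and 0 to 0 for iv 50, ip 50 and ip 200 mg/kg. For single enzymes no direction reversed in a called value. Of the values under other settings 864 kept their side of the threshold, 24 lost it and 8 gained it, and of those without a mouse 1372 kept it, 60 lost it and 8 gained it. No paired analysis was possible because no mouse number is shared between groups. Levels under the table's median of 3.47 limit Cyp1a1, Akr1d1, Rdh5, Cyp2j13, Cyp2c68, Akr1c20, Hsd3b2 and Cyp2c23 in at least 1 mouse at some dose. The same holds for Rdh12.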
